A study of Arabidopsis thaliana with 32 samples.

Results

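The small heat shock proteins described here are 10 Arabidopsis thaliana genes, chosen by locus and family from the 27655 genes of the expression table, by a rule that uses no measured value. They are the cytosolic class I genes HSP17.4 (AT3G46230), HSP17.6A (AT1G59860), HSP17.6B (AT2G29500), HSP17.6C (AT1G53540), HSP17.8 (AT1G07400), and HSP18.2 (AT5G59720), the cytosolic class II genes HSP17.6II (AT5G12020) and HSP17.7 (AT5G12030), the plastid gene HSP21 (AT4G27670), and the mitochondrial gene HSP23.6 (AT4G25200). The table itself calls HSP17.4, HSP18.2, HSP17.6II, and HSP21 by the names HSP17.4A, HSP18.1, HSP17.6, and HSP25.3. Of the 10 genes, 9 reached the minimum level for testing, and HSP21 did not.

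Small heat shock proteins are chaperones that need no ATP. Through a conserved alpha-crystallin domain they form large oligomers, bind other proteins as these unfold, and hold them in a state from which ATP-driven chaperones such as HSP101 and HSP70 can refold them. In plants the families are sorted by the compartment they serve, and their genes are known for strong transcription by heat shock factors, which bind repeated GAA and TTC units called heat shock elements, during heat stress and in maturing seed.

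Whole seedlings were grown for 96 h in unbroken red light (50 µmol per square metre and second) at 20°C or at 27°C, a warm temperature that promotes growth. The 4 lines were the wild type Col-0 and the mutants *pif4-2*, *hmr-22*, and *med14-2*, all in the Col-0 background. They lack or alter the growth-promoting transcription factor PIF4, its coactivator HMR, and the Mediator subunit MED14, and each is a single allele. The *pif4-2* and *med14-2* lines carry T-DNA insertions, while *hmr-22* is held to be a weak allele in which a residue is substituted. Each of the 8 groups had 4 biological replicates, each a pool of seedlings, so in such bulk RNA fewer expressing cells and less RNA per cell cannot be told apart.

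The values are FPKM, fragments per kilobase of transcript per 1000000 mapped, from stranded libraries. Each library's depth was recovered from them, at 11911240 to 16883321 fragments. The share in nuclear genes in Col-0 ran from 68.0 to 82.8% in the cool and from 91.9 to 93.0% in the warm, against 35.2 to 61.0% and 64.4 to 74.7% in *hmr-22*, and 1 *med14-2* library at 27°C, replicate 1, stood apart at 55.9%. The levels of HMR, PIF4, and MED14 checked the labels. HMR was at 0.224 ± 0.120 FPKM in *hmr-22* against 29.6 ± 3.09 in Col-0 at 20°C (SD, n = 4), that is, nearly absent. PIF4 at 27°C was at 5.63 ± 1.45 in *pif4-2* against 24.4 ± 1.90 FPKM. At 20°C it was at 5.47 ± 1.11 in *pif4-2* against 7.49 ± 1.78 FPKM in Col-0. The ranges overlapped there, so PIF4 did not set those *pif4-2* libraries apart. MED14 was not lower in *med14-2*, at 9.99 ± 0.326 against 5.73 ± 0.575 FPKM at 20°C, and the FPKM do not show which part of the gene gave the fragments. Every direction drawn below for a mutant line is thus one of the libraries so labelled. The 6 green seedling genes, among them those of chlorophyll-binding proteins and the small subunit of Rubisco, summed to 30420 to 36290 FPKM in Col-0 and to 14650 to 48180 over all libraries. The sum of 12 seed maturation genes ran from 1.15 to 9.80 FPKM in Col-0 and *pif4-2*, from 21.9 to 41.4 in *hmr-22* at 27°C, from 2.01 to 49.5 in *med14-2* at 20°C, and from 1.45 to 5.97 in the other 2 groups.

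The members are short genes, most of them without an intron. Of the 10, 8 lie in 1 exon, while HSP21 and HSP23.6 have 2, and their coding sequences run from 462 bases in HSP17.6B to 684 in HSP21. Coordinates are those of TAIR10.1, the RefSeq reference used here, in which all 10 have the start and end given in the TAIR10 table. HSP17.6II (chromosome 5, 3882231 to 3883111, minus strand) and HSP17.7 (chromosome 5, 3883957 to 3884838, minus strand) are neighbours, 845 bases apart. The closest pairs of coding sequences were HSP17.6A and HSP17.8, identical at 89.7% of bases, HSP17.6II and HSP17.7 at 86.8%, and HSP17.4 and HSP17.6C at 85.6%. The longest exact run that any 2 of these transcripts share was 43 bases, between HSP17.6A and HSP17.8, so a fragment inside such a run could be counted for either gene. HSP17.4 (chromosome 3, 16984118 to 16984867, minus strand) overlaps 2 genes on the opposite strand, and the reads were mapped with strand taken into account.

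The stretches before these genes were searched for heat shock elements because the family is known for them. A two-unit element was spelled GAANNTTC or TTCNNGAA and a three-unit element adds NNGAA to the first or NNTTC to the second, on both strands. Within 500 bases before the coding start, all 10 members held at least 1 two-unit element, which 33.9% of 27443 such windows of protein-coding genes also held. HSP17.4, HSP17.6C, and HSP18.2 held a three-unit element, found in 1.20% of the windows. The three-unit element nearest to the coding start, or the two-unit one where there is none, follows for each member with 6 bases on each side, 5′ to 3′ on the gene's strand, with the element in capitals.
HSP17.4: aaacctGAAATTTCAAGAAacttgc
HSP17.6C: acaccaGAAACTTCTTGAAagcacc
HSP18.2: acaaacGAAACTTCCTGAAatgcca
HSP17.6A: cctcatTTCTAGAAgctctg
HSP17.8: cgtaaaTTCTAGAAgctctg
HSP17.6B: gctcgaGAAATTTCggttag
HSP17.6II: agacgtTTCTCGAAcaatac
HSP17.7: agacgtTTCTCGAAcgttag
HSP21: gaactaGAATTTTCtaatct
HSP23.6: tctccaGAACATTCactcac
The sites of HSP17.6A and HSP17.8 were identical at 17 of 20 bases, as were those of HSP17.6II and HSP17.7, the same pairs whose coding sequences were closest. The sites lie at chr3:16984867-16984891 in HSP17.4, chr1:19980240-19980264 in HSP17.6C, chr5:24062390-24062414 in HSP18.2, chr1:22031344-22031363 in HSP17.6A, chr1:2274988-2275007 in HSP17.8, chr2:12633843-12633862 in HSP17.6B, chr5:3883040-3883059 in HSP17.6II, chr5:3884847-3884866 in HSP17.7, chr4:13819932-13819951 in HSP21, and chr4:12916933-12916952 in HSP23.6. Those of HSP17.4, HSP17.6C, and HSP17.7 begin before the annotated start of the gene and the other 7 lie inside the annotated leader. A match is a match of letters and not evidence of binding.

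**Figure D1:**
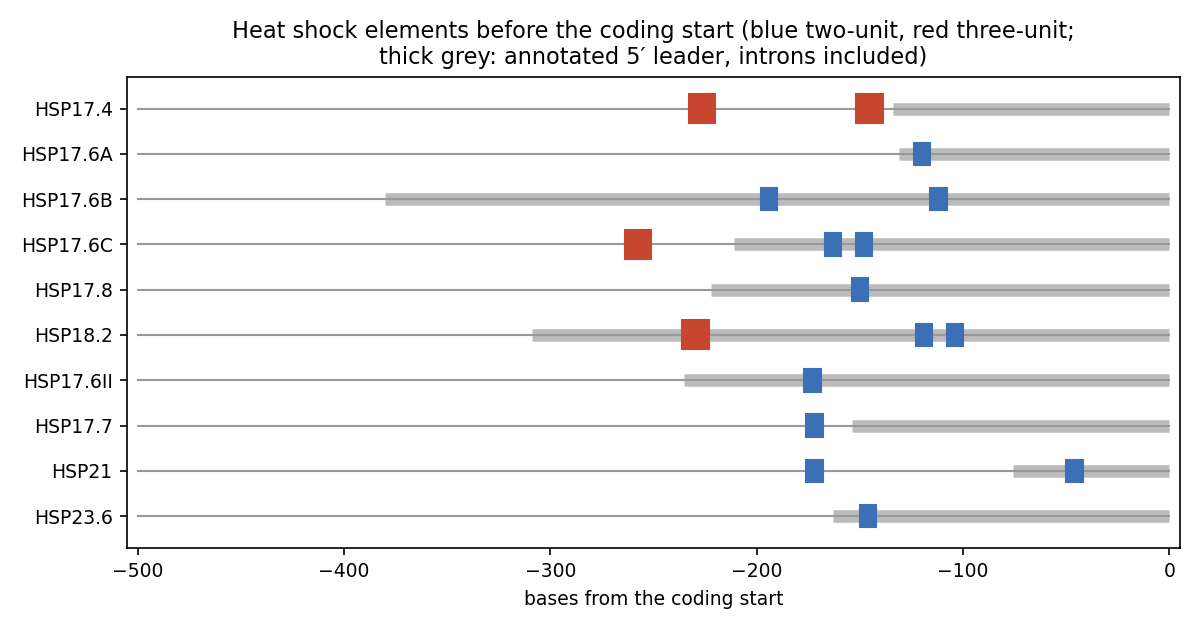
Position of heat shock elements in the 500 bases before the coding start of each member, in bases from the coding start. Blue boxes are two-unit and red boxes three-unit elements, and thick grey marks the annotated leader, which holds the printed site of 7 of the 10 members.

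HSP17.4 is shown in full because it passed the test of a warm response in all 4 lines. The 250 bases before its annotated start (chr3:16984868-16985117, minus strand, TAIR10.1) held 2 three-unit elements, which begin 99 and 18 bases before the start and are in capitals, and 1 G-box (CACGTG, the core to which PIF factors are known to bind), which begins 216 bases before it.
HSP17.4: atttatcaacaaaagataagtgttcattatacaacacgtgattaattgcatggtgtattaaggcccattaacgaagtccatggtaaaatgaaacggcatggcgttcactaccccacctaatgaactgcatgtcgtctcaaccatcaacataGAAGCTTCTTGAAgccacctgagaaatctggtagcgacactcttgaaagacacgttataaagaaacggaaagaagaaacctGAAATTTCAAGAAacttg
Of 27443 windows of this length, 0.39% held a three-unit element and 6.49% a G-box. Among the members, 2 held the first and 1 the second in this window. The window of HSP17.6C was the closest to it, at 60.0% identical bases in a global alignment.

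The family was weakly expressed at 20°C in every line, and its summed level was higher at 27°C in the mean of each line. Summed over the 10 genes, Col-0 had 51 to 127 fragments per library at 20°C and 207 to 382 at 27°C. This was, per 1000000 fragments in nuclear genes, 7.31 ± 2.05 and 21.3 ± 4.61 (SD, n = 4), and the groups did not overlap. In *pif4-2* the sums were 8.04 ± 2.23 and 41.8 ± 12.9, and its lowest library at 27°C, at 28.3, was above the highest of Col-0, at 27.7. In *hmr-22* they were 4.65 ± 1.44 and 8.73 ± 0.717, overlapping Col-0 at 20°C and below every Col-0 library at 27°C. With FPKM scaled by their nuclear sum, a similar scale, genes in general were lower in *hmr-22* at 27°C. The median difference from Col-0 over all tested genes was −1.26 on the log2 scale, with 10398 of 19937 called lower. The lower family sum there is thus not read as particular to the family. In *med14-2* the sums were 11.8 ± 6.91 and 23.1 ± 3.61, and the ranges overlapped, because replicate 4 at 20°C reached 21.9 while the other 3 replicates were between 6.40 and 9.62. That library had the lowest seed gene sum of its group, 2.01 FPKM. The part of seed transcripts in the family sums was not tested.

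**Figure D2:**
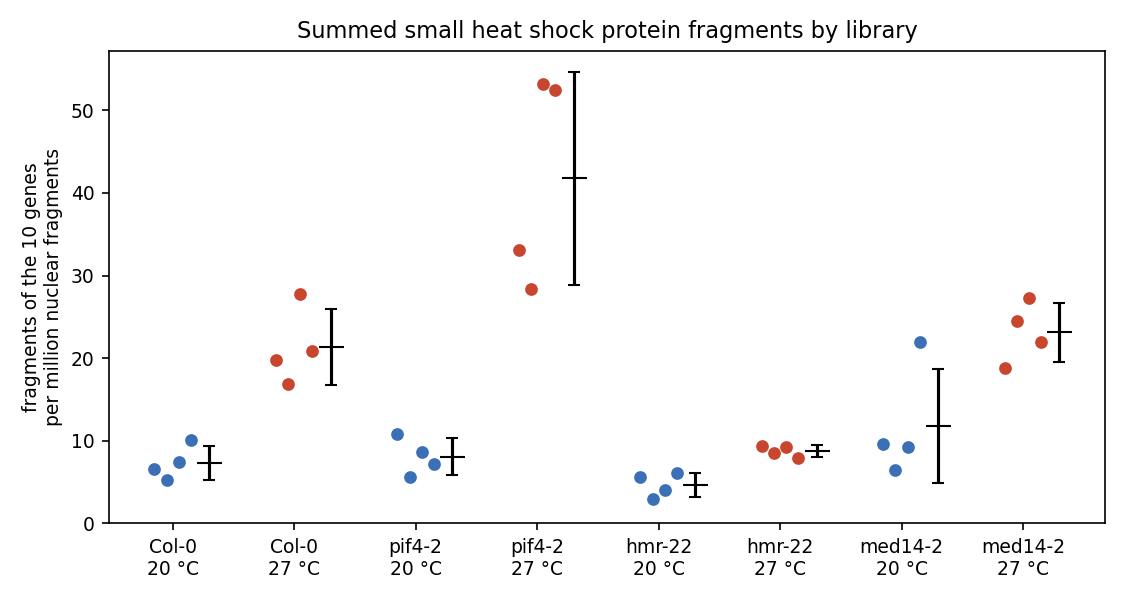
Fragments of the 10 genes per 1000000 fragments in nuclear genes, by line and temperature. Each point is 1 library (blue 20°C, red 27°C), and the bar is the mean with its SD. The sums were 21.3 ± 4.61 in Col-0 and 41.8 ± 12.9 in *pif4-2* at 27°C.

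The largest share came from 1 gene in most groups. HSP17.6B, a cytosolic class I protein, had 185 of the 316 fragments of the family in Col-0 at 20°C and 567 of 1176 at 27°C. It had 1259 of 2386 fragments in *pif4-2* at 27°C. In *med14-2* at 27°C HSP17.6A was as high, at 4.90 ± 1.77 against 4.85 ± 2.00 FPKM. At the other end, HSP21, which protects plastid proteins, had at most 3 fragments in any library and 0 to 4 in a whole group, with none in *hmr-22* at either temperature. Its level was too low to compare.

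**Figure D3:**
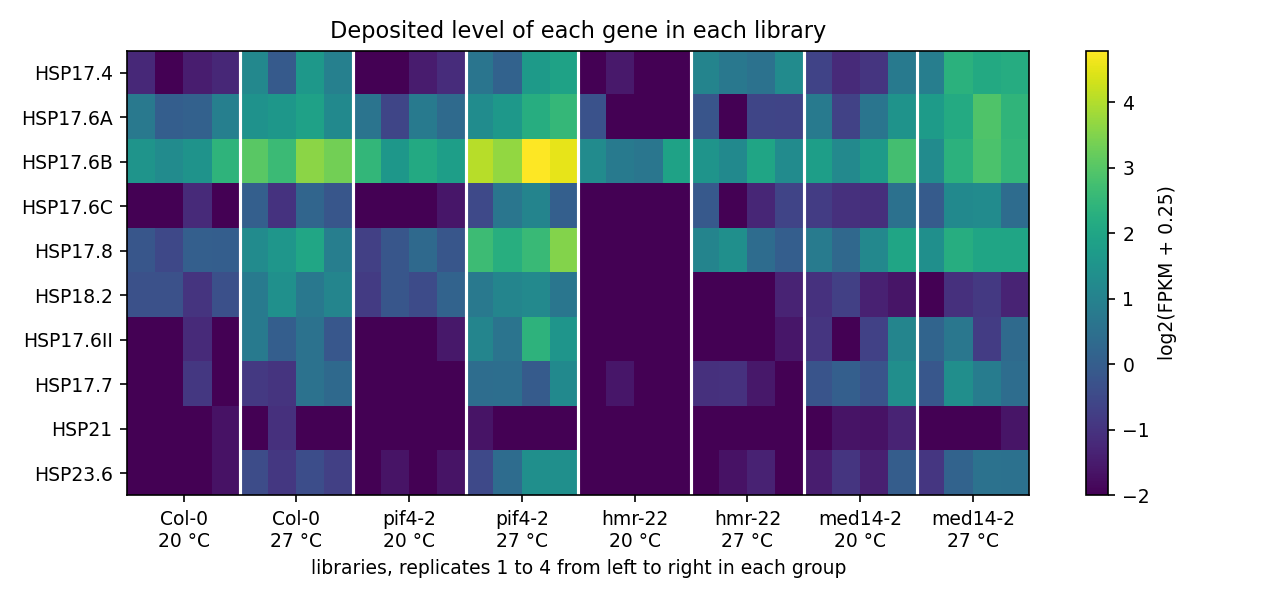
Deposited level of each member in each of the 32 libraries, as log2(FPKM + 0.25), replicates 1 to 4 from left to right within a group. The scale starts at −2, a value of 0 FPKM. HSP17.6B had the highest mean FPKM in each group but *med14-2* at 27°C, and the *hmr-22* columns at 20°C are mostly at 0.

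Whether the family responds to growth temperature in the wild type was asked with limma on log2(FPKM + 0.25), with libraries scaled by the TMM method (trimmed mean of M values). To be called, a gene needed a fold of 2 or more with an adjusted p under 0.001, and more than 1 FPKM in the mean of the higher group. In Col-0, all 9 tested members had a positive change. HSP17.4 was the 1 called, against 2.24% of all 19937 tested genes, and 0 were called lower, against 2.99%. At an adjusted p under 0.05 alone, 8 of the 9 rose, with HSP17.6A the exception, against 9.54% of all tested genes. The median change of the 9 was 1.03 on the log2 scale, against 0.02 over all tested genes. The level limit kept 3 members from a call whatever their change, since HSP17.6C, HSP17.7, and HSP23.6 had means of 0.641, 0.693, and 0.414 FPKM at 27°C. Without the scaling, which moved the median of all genes by 0.47, 5 members and 8.59% of all genes were called higher, or 1712 genes against 286 lower, where scaling gave 447 against 597.

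In *pif4-2*, 7 of the 9 rose at the full thresholds, against 3% of all genes. These were HSP17.4, HSP17.6B, HSP17.6C, HSP17.8, HSP17.6II, HSP17.7, and HSP23.6. None fell, against 2.7%, and limma gave 0 at an unadjusted p under 0.05 as well. The median change was 2.07, and the deposited FPKM at 27°C lay wholly above those at 20°C for 9 of the 10 members, against 42.5% of all tested genes. On scaled FPKM this was also 9 of 10, against 18.1%. All 9 changes were positive, from 0.84 in HSP18.2 to 2.84 in HSP17.6II. Without scaling the count was 8, against 10.8% of all genes.

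In *hmr-22*, 2 rose, HSP17.4 and HSP17.8, against 13.8% of all genes, and 0 fell, against 8.3%. The median change was 0.68 on the log2 scale, against 0.18 over all genes. Without scaling both were still called, against 33.4% of all genes. In *med14-2*, 1 rose, HSP17.4, against 1.62%, and 0 fell, against 2.83%. The median change was 0.50, against −0.00 over all genes. No member fell at an unadjusted p under 0.05 with limma in any line, and voom on the recovered fragments called 0 lower in each of the 4.

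**Figure D4:**
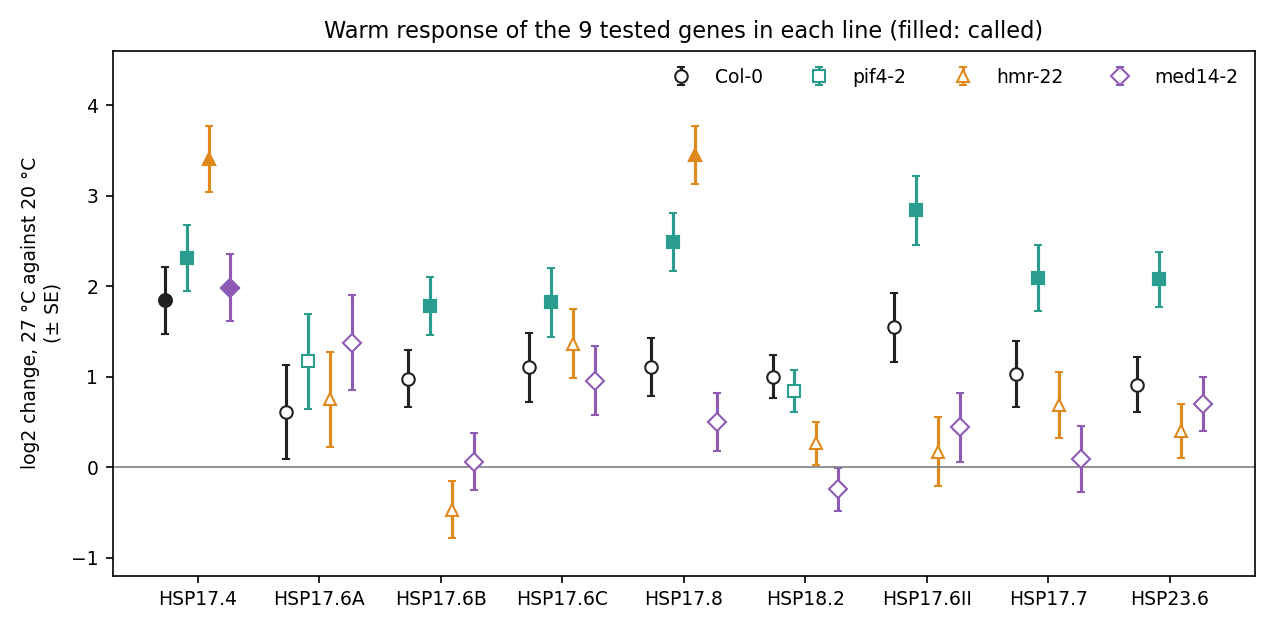
Log2 change from 20°C to 27°C with its SE for the 9 tested members in each line. Filled symbols passed the thresholds. HSP17.4 is filled in all 4 lines, and all 9 changes in *pif4-2* lie above 0.

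HSP17.4, a class I protein, was nearly absent at 20°C and rose in every line. In Col-0 its FPKM were 0.180, 0, 0.112, and 0.175 at 20°C and 1.98, 0.702, 2.79, and 1.68 at 27°C. Every warm library was above every library at 20°C, and 78 fragments at 27°C stood against 5. The change was 1.84 ± 0.37 on the log2 scale (SE, adjusted p = 0.00031). The call was lost without any of 5 libraries, Col-0 replicates 2 and 3 at 20°C and 1, 3, and 4 at 27°C, with adjusted p of 0.0010 to 0.0027.

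In *pif4-2* HSP17.4 went from 0, 0, 0.105, and 0.204 FPKM to 1.29, 0.847, 2.97, and 3.47, a change of 2.31 ± 0.37 (adjusted p = 1.6e-05). In *hmr-22* 1 of the 4 libraries at 20°C had a single fragment and the other 3 had 0, while at 27°C the FPKM were 1.84, 1.38, 1.21, and 2.16 (3.40 ± 0.37, adjusted p = 3.0e-09). The ratio of fragments per 1000000 nuclear fragments was 47.4, with a 95% interval of 8.22 to 1900 for counting error alone (exact, conditional on the sum). In *med14-2* it went from 0.395, 0.184, 0.262, and 1.44 to 1.62, 4.83, 4.10, and 4.35 FPKM. The groups did not overlap there either, although replicate 4 at 20°C was far above the other 3, and the change was 1.98 ± 0.37 (adjusted p = 0.00015). That call was lost without *med14-2* replicate 2 or 3 at 20°C, with adjusted p of 0.0012 to 0.0013.

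HSP17.8, another class I protein, passed in *pif4-2* and *hmr-22*. In Col-0 it went from 0.628, 0.448, 0.783, and 0.766 to 2.18, 2.72, 3.78, and 1.61 FPKM, a log2 change of 1.10 ± 0.32 (adjusted p = 0.010) that was not called. In *pif4-2* it went from 0.360, 0.623, 1.01, and 0.624 to 6.04, 4.52, 5.79, and 11.3 FPKM, and rose by 2.48 ± 0.32 (adjusted p = 6.3e-07). In neither line did the temperatures overlap, and the lowest warm *pif4-2* library was above the highest warm Col-0 library.

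In *hmr-22* no library at 20°C held a fragment of HSP17.8, and the 4 at 27°C held 23, 29, 12, and 9, or 0.772 to 2.33 FPKM. With 3 fragments over the group put in place of 0, HSP17.8 was 17.5-fold higher at 27°C per 1000000 nuclear fragments. The counting interval of the ratio itself had a lower limit of 13.9 and no upper limit. The limma change was 3.44 ± 0.32 on the log2 scale (adjusted p = 1.5e-10). In *med14-2* the values were already 1.52, 0.968, 1.99, and 3.70 FPKM at 20°C and 2.34, 4.39, 3.75, and 3.71 at 27°C, which overlap, and the change was 0.50 ± 0.32 (adjusted p = 0.29). Of the 12 seed maturation genes, 6 were tested, and 2 of these rose with warmth in *hmr-22*, against 13.8% of all genes. OLEO2 went from 0.571 to 21.4 FPKM and EM6 from 0.436 to 6.84, while SESA1, SESA2, SESA3, and SESA4 were at 0 in every *hmr-22* library at 27°C. The part of the seed maturation genes in the change of HSP17.4 and HSP17.8 was not tested.

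**Figure D5:**
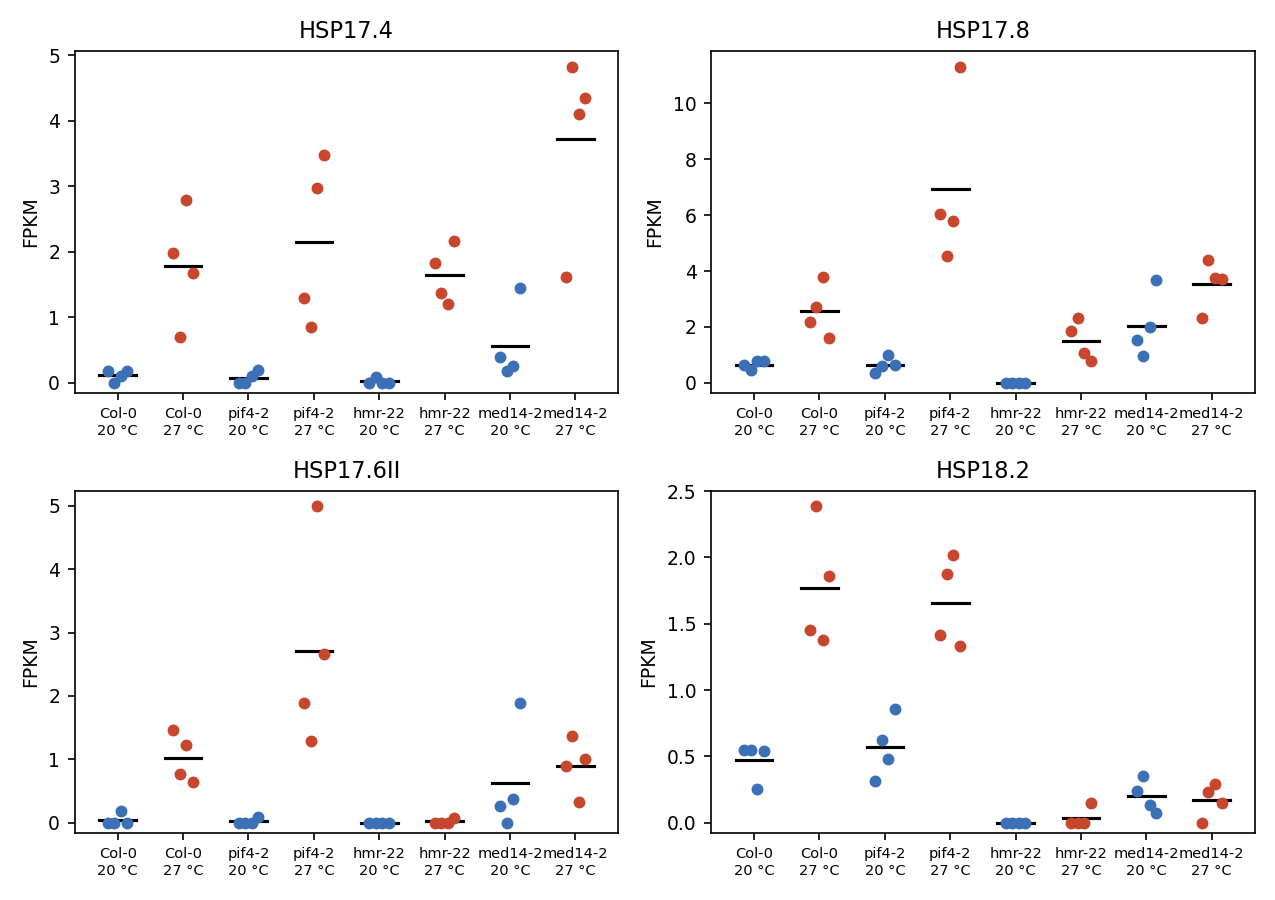
Deposited FPKM of HSP17.4, HSP17.8, HSP17.6II, and HSP18.2 in every library, blue at 20°C and red at 27°C, with the group mean as a line. HSP17.4 is high at 27°C in all 4 lines, whereas HSP18.2 stays at or below 0.354 FPKM in *hmr-22* and *med14-2*.

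HSP18.2, also of class I, was low in *hmr-22* and *med14-2*. In Col-0 it went from 0.551, 0.550, 0.258, and 0.538 to 1.45, 2.38, 1.38, and 1.86 FPKM, and in *pif4-2* from 0.316, 0.625, 0.481, and 0.861 to 1.41, 1.88, 2.02, and 1.33. The temperatures did not overlap in either line, with log2 changes of 1.00 ± 0.24 (adjusted p = 0.0019) and 0.84 ± 0.24 (adjusted p = 0.0071), which miss the thresholds. In *med14-2* it was at 0.242, 0.354, 0.134, and 0.0737 at 20°C and 0, 0.231, 0.292, and 0.151 at 27°C, a change of −0.25 ± 0.24 (adjusted p = 0.50). In *hmr-22* the 8 libraries held 2 fragments in all, both in replicate 4 at 27°C.

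At 27°C all 4 *med14-2* and all 4 *hmr-22* libraries were below all 4 Col-0 libraries for HSP18.2. The log2 differences were −1.90 ± 0.24 (adjusted p = 5.1e-07) and −2.08 ± 0.24 (adjusted p = 2.4e-09). Both calls held without each library in turn. Both were lost at a pseudocount of 1 FPKM, where the differences were −0.89 and −0.93, under the fold limit. By fragments the ratios to Col-0 were 0.106, with a 95% counting interval of 0.0470 to 0.209, and 0.0277, from 0.00331 to 0.103. With FPKM scaled by the nuclear sum, the median log2 difference over all tested genes was 0.06 in *med14-2* and −1.26 in *hmr-22*. The response to warmth itself was smaller in *med14-2* than in Col-0 by −1.25 ± 0.33 on the log2 scale (adjusted p = 0.017), and this difference was lost without *med14-2* replicate 1 at 27°C (−1.10, adjusted p = 0.055). The summed level of the green seedling genes at 27°C was also lower in *med14-2*, at 14650 to 23860 FPKM against 31540 to 36290 in Col-0. In *med14-2*, 3 of 6 were called lower, against 1.85% of all genes, and 4 of 6 had a smaller response, against 4.37%. In *hmr-22* at 27°C, 3 of these 6 were instead called higher than in Col-0, against 23.6%, and 0 lower, against 24%. Their part in the HSP18.2 result was not tested.

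HSP17.6B, the most abundant member, rose at the thresholds in *pif4-2*, from 5.34, 2.75, 4.08, and 3.26 to 16.3, 12.5, 27.3, and 22.9 FPKM (1.78 ± 0.32, adjusted p = 7.2e-05). In Col-0 it went from 2.62, 2.18, 2.54, and 5.11 to between 5.91 and 11.9 (0.97 ± 0.32, adjusted p = 0.022). Neither pair overlapped. In *med14-2* the values were 3.69 ± 1.94 and 4.85 ± 2.00 FPKM (SD, n = 4), and in *hmr-22* 2.11 ± 0.987 and 2.64 ± 0.754, which overlap in both lines. The fitted change was 0.06 ± 0.32 in *med14-2* (adjusted p = 0.93). In *hmr-22* it was −0.47 ± 0.32 (adjusted p = 0.20), and without scaling it was 0.35, so its sign depends on the scaling.

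HSP17.6A and HSP17.6C, the remaining class I genes, passed in 1 line between them. HSP17.6A went from 1.17 ± 0.441 to 2.68 ± 0.565 FPKM in Col-0 (0.61 ± 0.52, adjusted p = 0.45), and from 1.43 ± 0.886 to 4.90 ± 1.77 in *med14-2* (1.37 ± 0.52, adjusted p = 0.058). Its deposited values did not overlap in either line, but on scaled FPKM the Col-0 groups did, and HSP17.6A passed in none of the 4. In *hmr-22* at 20°C its 8 fragments all came from replicate 1. HSP17.6C had 2, 1, 0, and 26 fragments at 20°C in the wild type, *pif4-2*, *hmr-22*, and *med14-2*, and 35, 60, 16, and 74 at 27°C. It rose in *pif4-2* (1.82 ± 0.38, adjusted p = 0.00049), a call lost without any of 5 libraries, replicates 1, 2, and 3 at 20°C and 2 and 3 at 27°C, with adjusted p of 0.0018 to 0.0038.

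The class II genes, whose proteins form oligomers apart from those of class I, were close to 0 at 20°C in Col-0 and *pif4-2*. HSP17.6II had 0, 0, 2, and 0 fragments in Col-0 at 20°C and 20, 9, 16, and 9 at 27°C (1.55 ± 0.38, adjusted p = 0.0028, not called). In *pif4-2* it had 1 fragment in all at 20°C and 24, 16, 69, and 36 at 27°C, or 2.70 ± 1.62 FPKM, and rose by 2.84 ± 0.38 (adjusted p = 1.3e-06). The ratio of fragments per 1000000 was 20.8 in Col-0, with a counting interval of 5.49 to 176, and 106 in *pif4-2*, from 18.7 to 4210. In *med14-2* the values were 0.269, 0, 0.372, and 1.88 FPKM at 20°C and 0.894, 1.37, 0.325, and 1.01 at 27°C, which overlap. In *hmr-22* 1 fragment was found in 8 libraries.

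HSP17.7 stood at 0, 0, 0.286, and 0 FPKM in Col-0 at 20°C and 0.292, 0.256, 1.23, and 0.997 at 27°C, so that the groups overlapped at 1 library. In *pif4-2* it was at 0 in all 4 libraries at 20°C, and had 14, 14, 10, and 28 fragments at 27°C. With 3 fragments over the group put in place of 0, this was 16.1-fold higher. The counting interval of the ratio itself had a lower limit of 12.7 and no upper limit. The limma change was 2.09 ± 0.36 (adjusted p = 5.5e-05). Without *pif4-2* replicate 4 at 27°C the mean of HSP17.7 fell under the level limit, and the call was lost (1.89, adjusted p = 0.00053). In *med14-2* it was present before warming, at 0.604, 0.784, 0.595, and 2.29 FPKM, and all 4 of these were above all 4 Col-0 libraries at 20°C. At 27°C it was at 0.649, 2.31, 1.54, and 1.09 FPKM, with a change of 0.09 ± 0.36 (adjusted p = 0.90).

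HSP23.6, the mitochondrial member, had 1, 2, 0, and 19 fragments at 20°C in the wild type, *pif4-2*, *hmr-22*, and *med14-2*, and 26, 100, 3, and 51 at 27°C. It rose in *pif4-2*, to 0.462, 1.08, 2.37, and 2.36 FPKM (2.07 ± 0.30, adjusted p = 4.0e-06). In Col-0 the change was 0.91 ± 0.30 (adjusted p = 0.024) at 0.287 to 0.516 FPKM. The fragment ratio was 36.5 in *pif4-2*, with a counting interval of 9.84 to 305, and 20 in Col-0, from 3.29 to 822. These intervals overlap, and all of them cover counting error only.

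The difference between each mutant's response and that of Col-0 was tested by an interaction of line with temperature, at an adjusted p under 0.05. The comparisons share the 8 Col-0 libraries. In *pif4-2*, limma gave 0 members in either direction, against 1.54% of all genes with a larger and 0.943% with a smaller response. At an unadjusted p under 0.05 it gave 4 larger, against 7.14% of all genes, and 0 smaller, and voom on the recovered fragments called 0. The estimates were positive for 8 of 9 members, with a median of 0.81, and the largest was 1.38 ± 0.45 in HSP17.8 (adjusted p = 0.11). Thus 7 called members in *pif4-2* and 1 in Col-0 do not by themselves show that the lines differ.

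In *hmr-22*, the response was larger for 2 members, HSP17.8 (2.34 ± 0.45, adjusted p = 0.00010) and HSP17.4 (1.56 ± 0.52, adjusted p = 0.015), against 29% of all genes. It was smaller for 2, HSP17.6B (−1.45 ± 0.45, adjusted p = 0.0090) and HSP17.6II (−1.38 ± 0.54, adjusted p = 0.037), against 16.5%. The HSP17.4 difference fell to 0.39 (adjusted p = 0.60) without scaling, and that of HSP17.6B to −1.13 (adjusted p = 0.053). Both shares of members, 2 of 9, are near the background. HSP17.6II lost its call without any of 8 libraries, Col-0 replicates 1, 2, and 4 at 20°C and 1 and 3 at 27°C and *hmr-22* replicates 1, 2, and 3 at 27°C, with adjusted p of 0.058 to 0.078. In *med14-2*, 0 members had a larger response, against 2.03%, and 0 at an unadjusted p under 0.05 and by voom. HSP18.2 had a smaller one, 1 of 9, against 4.37%. The estimates there were negative for 7 of 9, with a median of −0.61.

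Levels were also compared with Col-0 at each temperature. At 20°C, 0 members were called in *pif4-2* in either direction, against 0.677% higher and 0.105% lower over all genes, with 0 at an unadjusted p under 0.05 by limma and 0 called by voom. In *med14-2* 0 were called, against 1.24% higher and 0.717% lower. At an unadjusted p under 0.05, however, limma gave 6 of 9 higher, against 14.5% of all genes, and 1 lower, against 10.9%, and voom called 1 higher and 0 lower. The highest was HSP17.7, at 1.75 ± 0.36 (adjusted p = 0.0011), followed by HSP17.8 (1.14 ± 0.32, adjusted p = 0.015). HSP17.7 had 55 fragments against 3 in Col-0, and HSP17.8 had 104 against 31. Replicate 4 of *med14-2* was the highest of its group for 9 of the 10 members, and without it 2 of 9 were higher and 1 lower at an unadjusted p under 0.05. Without Col-0 replicate 3, HSP17.7 was called (2.00, adjusted p = 0.00052).

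In *hmr-22* at 20°C, HSP17.6B was called higher (1.30 ± 0.32, adjusted p = 0.00045), 1 of 9 against 21.5% of all genes, although its deposited FPKM was lower than in Col-0, and without scaling the difference was −0.52. It also lost the call without any of 6 libraries, Col-0 replicates 1, 2, and 3 and *hmr-22* replicates 1, 3, and 4, with adjusted p of 0.0012 to 0.0038. None was called lower, against 28%, with 3 at an unadjusted p under 0.05, against 45.6%, and 0 by voom. HSP17.8 and HSP18.2 were at 0 fragments there and 31 and 26 in Col-0. With 3 fragments over the group put in place of 0, they were 6.83-fold and 5.72-fold lower per 1000000 nuclear fragments. The counting intervals of the ratios to Col-0 ran from 0 to 0.191 and from 0 to 0.231. Part of these folds is general to the scale. With FPKM scaled by the nuclear sum, the median log2 difference over all tested genes was −1.51, with 11169 called lower. The limma differences with TMM scaling were −1.67 ± 0.32 for HSP17.8 and −1.35 ± 0.24 for HSP18.2. Neither gene could be called, because the larger mean was under 1 FPKM.

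At 27°C, HSP17.8 was higher in *pif4-2* than in Col-0 (1.47 ± 0.32, adjusted p = 0.00079), 1 of 9 members against 3.38% of all genes, and 0 were lower, against 1.1%, with 0 at an unadjusted p under 0.05 and 0 by voom. The HSP17.8 call was lost without scaling (1.32, adjusted p = 0.0015), with the replicate number as a block (1.47, adjusted p = 0.0012), and without any of 6 libraries, Col-0 replicates 1, 2, and 4 and *pif4-2* replicates 1, 3, and 4, with adjusted p of 0.0017 to 0.0072. HSP17.6B and HSP23.6 had differences of 1.31 ± 0.32 and 1.26 ± 0.30 (adjusted p = 0.0022 and 0.0019). In *hmr-22*, 0 members were higher, against 23.6%, with 2 at an unadjusted p under 0.05, against 36.3%, and 0 by voom. HSP18.2 and HSP17.6II were lower, 2 of 9 against 24%. HSP17.6II was lower by −1.57 ± 0.38 (adjusted p = 0.00048), a call lost without any of 5 libraries, Col-0 replicates 1 and 3 and *hmr-22* replicates 1, 2, and 3 (adjusted p of 0.0019 to 0.0029). In *med14-2*, 0 were higher, against 1.38%, with 4 at an unadjusted p under 0.05, against 12.9%, and 0 by voom, and HSP18.2 alone was lower, against 1.85%.

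The members did not move as a single block. Over the 32 libraries, the correlation between the log2 levels of 2 members had a median of 0.54 and ran from −0.01 to 0.84 over 36 pairs. Over the 24 libraries without *hmr-22* the median was 0.72, and the closest pair was HSP17.4 and HSP17.6C (0.90), while HSP18.2 and HSP17.7 were at −0.20. These libraries share their scaling and the same warm contrast. The 5 genes whose levels followed the mean profile of the 9 members most closely were MBF1A, a transcriptional coactivator (r = 0.88), AT1G75280 (0.88), the mitochondrial small heat shock protein HSP23.5 (0.88), the aldo-keto reductase AKR4C9 (0.88), and the cytosolic chaperone HSP90-1 (0.88), over 32 libraries. Of these 5, 1 was still among the first 5 without *hmr-22*, and 1 without scaling.

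Other genes of the heat shock response give the setting, from lists chosen by function. Of 6 further small heat shock proteins, 4 were tested, and 2, 1, 1, and 1 rose with warmth in the wild type, *pif4-2*, *hmr-22*, and *med14-2*, with none lower. Of all tested genes, 2.24%, 3%, 13.8%, and 1.62% rose in these lines. HSP23.5, mitochondrial like HSP23.6, rose in each, from 1.44 ± 0.457 to 14.5 ± 4.78 FPKM in Col-0 (2.59 ± 0.35, adjusted p = 1.3e-06). HSP23.6 was at 0.414 ± 0.109 FPKM in the same libraries. HSP15.4 rose in Col-0 (1.11 ± 0.17, adjusted p = 8.2e-06) and just missed the fold limit in *pif4-2* (0.93 ± 0.17, adjusted p = 8.7e-05). Its response was smaller in *hmr-22* (−1.43 ± 0.24, adjusted p = 1.4e-05) and in *med14-2* (−2.06 ± 0.24, adjusted p = 6.0e-07).

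The heat shock factors, only some of which activate small heat shock protein genes, passed in none of the Col-0 tests. Of 19 tested, 0, 1, 4, and 0 rose and 0, 0, 1, and 0 fell in the wild type, *pif4-2*, *hmr-22*, and *med14-2*. Over all tested genes, 2.24%, 3%, 13.8%, and 1.62% rose and 2.99%, 2.7%, 8.3%, and 2.83% fell. HSFA2, a heat-inducible activator of these genes, rose in *pif4-2* (1.30 ± 0.25, adjusted p = 0.00018) from 0.175 ± 0.122 to 1.06 ± 0.211 FPKM. In *hmr-22* HSFA4A, HSFA6A, HSFB2A, and HSFB2B rose, and HSFA9, a factor known from seed maturation, fell from 1.30 ± 0.738 FPKM to 0 in all 4 libraries.

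Among the larger chaperones and their partners, 16 were tested, with none lower. In the same order of lines, 5, 7, 12, and 6 rose, against 2.24%, 3%, 13.8%, and 1.62% of all tested genes. In Col-0 these were led by ROF2, a cochaperone of HSP90 (3.09 ± 0.23, adjusted p = 2.0e-11), HSP70-4 (3.06 ± 0.34, adjusted p = 5.7e-08), HSP90-1 (2.86 ± 0.27, adjusted p = 2.3e-09), and HOP3, which links HSP70 and HSP90 (2.58 ± 0.17, adjusted p = 2.5e-12). HSP90-1 went from 3.03 ± 0.382 to 34.2 ± 5.91 FPKM there. HSP101, the disaggregase that works with small heat shock proteins, rose in *pif4-2* (1.09 ± 0.23, adjusted p = 0.00052) and *hmr-22* (2.88 ± 0.23, adjusted p = 6.6e-12). In Col-0 and *med14-2* its changes were 0.92 ± 0.23 and 0.94 ± 0.23 (adjusted p = 0.0031 and 0.0030), just under the fold limit, and the response in *pif4-2* differed from that of Col-0 by 0.17 ± 0.32 (adjusted p = 0.91). The rises in *hmr-22* began from low levels. At 20°C, 13 of the 16 were called lower there than in Col-0, against 28% of all genes, and 1 higher, against 21.5%. At 27°C, 6 were still lower, against 24%, and 3 higher, against 23.6%.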

How the data were processed

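Poly(A) RNA of 32 libraries was sequenced from stranded libraries as read pairs. The authors mapped the reads to TAIR10 with CLC Genomics Workbench and deposited FPKM per gene. Whole fragments were recovered from the FPKM, with 99.22 to 99.28% of values whole within 0.05 up to 1000 fragments, at a median of 13978348 fragments per library. Genes at 0.5 FPKM or more in at least 4 libraries (19937) were scaled by TMM, computed without weights, and fitted with limma 3.58.1 (R 4.3.3, trend and robust) on log2(FPKM + 0.25), as means of the 8 groups. Benjamini-Hochberg adjustment was made separately in 13 comparisons. A call needed an adjusted p under 0.001, a fold of 2, and a larger mean over 1 FPKM, and a difference of response an adjusted p under 0.05. Fold changes on this scale understate the change of low genes. The pipeline was tested on simulated data, with changes only in genes over 1 FPKM in Col-0 at 20°C. That test did not cover the low levels of most members or the scaling of *hmr-22*. As alternatives, scaling, filter, pseudocount, thresholds, the samples in the fit, the replicate block, voom on the recovered fragments, and the libraries were varied. Every member was named. Gene lists and members were chosen with earlier results of these data known. Same-numbered libraries deviated together, with all 4 correlations over 0.1, in 3 of 28 pairs of groups. These were *med14-2* at both temperatures (mean 0.30), Col-0 and *med14-2* at 20°C (0.20), and *pif4-2* and *med14-2* at 27°C (0.27). Sequences are from RefSeq TAIR10.1, read with Biopython 1.88. Intervals cover counting error only, and the p-values the spread between these replicates.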

Additional observations from a re-analysis of the deposited data

Results flagged for a closer look

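In 6 of 54 sets of a member and a group, 1 library lay far from the other 3 by Dixon's test. The test's rate of about 1 in 20 assumes normal values. Low counts with many zeros do not follow them, so the number of sets is not weighed against that rate. In *med14-2* at 20°C, replicate 4 was the high library in 3 of them, at 1.44 FPKM for HSP17.4, 1.20 for HSP17.6C, and 2.29 for HSP17.7. In Col-0 at 20°C, HSP17.6B was high in replicate 4, at 5.11 FPKM, and HSP18.2 was low in replicate 3, at 0.258. In *hmr-22* at 20°C, HSP17.6A was at 0.563 FPKM in replicate 1 and at 0 in the others.

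The response to warmth differed from that of Col-0 by the test of the difference itself, limma's interaction term, for 5 pairs of member and line. In *hmr-22* it was larger for HSP17.8 by 2.34 and for HSP17.4 by 1.56 on the log2 scale, and the differences for HSP17.6B and HSP17.6II were −1.45 and −1.38. In *med14-2* the difference for HSP18.2 was −1.25. Those for HSP17.4, HSP17.6B, HSP17.6II, and HSP18.2 were each lost under at least 1 other setting or left-out library.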

How the results depend on the processing

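Of the counts of members under the alternatives planned at the outset, other than leaving out 1 library, 183 stayed within 1.5 times the reported count and 39 did not. Of the values of single members, 14 changed sign. The causes were not tested. Without scaling, members called higher with warmth in Col-0 numbered 5, against 8.59% of all genes. A larger response in *hmr-22* was called for 1, against 27.7%. Against Col-0 at 20°C there were 0 higher in *hmr-22*, against 4.72%, and 1 higher in *med14-2*, against 1.08%. In *hmr-22* 1 was lower there, against 12049 of 19937 genes. At 27°C there were 0 higher in *pif4-2*, against 1.73%, and 4 lower in *hmr-22*, against 11272 of 19937 genes. Scaling by the nuclear sum gave the same counts for these, and 2 members higher with warmth in *med14-2*, against 6.54% of all genes. In the order above, the shares of all genes higher were then 4.65%, 33.6%, 6.45%, 1.11%, and 1.31%. The genes lower in *hmr-22* were 11169 at 20°C and 10398 at 27°C. Without scaling and with the nuclear sum, the change of HSP17.6B in *hmr-22* was 0.35 and 0.0601, and the difference of response there was −0.36 and −0.21 for HSP17.6A and −0.55 and −0.41 for HSP17.6C. Median ratio scaling gave 0 higher in *hmr-22* and 1 higher in *med14-2* at 20°C, against 19.9% and 1.16% of all genes. It gave a difference of response of −0.0002 for HSP17.6A in *hmr-22*. Without scaling, genes called against Col-0 in *hmr-22* at 20°C were 942 higher and 12049 lower, where scaling gave 4292 and 5590.

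Fits of the compared groups alone called 2 members with warmth in Col-0, 0 in *med14-2*, and 1 with a larger response in *pif4-2*. The fit without *hmr-22* also called that 1 response. Other thresholds (adjusted p under 0.05 alone for warmth, under 0.001 for responses) called 8 with warmth in Col-0, and in *hmr-22* 1 larger and 0 smaller, in *med14-2* 0 smaller responses. A pseudocount of 0.1 left 0 smaller responses in *med14-2*, with HSP17.4 at −0.16. A pseudocount of 1 called 0 members with warmth in Col-0 and 4 in *pif4-2*, and at 27°C 2 higher in *pif4-2* and 0 lower in *hmr-22* and in *med14-2*, with differences of response of −0.16 for HSP17.6A in *hmr-22* and 0.0746 for HSP17.6C in *med14-2*. With voom, 2 were called with warmth in Col-0, against 2.81% of the 19793 genes tested so. A larger response in *hmr-22* was called for 1, against 28.2%. At 20°C 0 were higher in *hmr-22*, against 22.2%, and 1 in *med14-2*, against 1.42%. At 27°C 2 were higher in *pif4-2*, against 4.87%, and 1 lower in *hmr-22*, against 4897 genes. By voom HSP18.2 and HSP17.6II changed with warmth in *hmr-22* by −0.33 and −0.52. The difference of response was −1.23 for HSP17.6C in *hmr-22* and −0.37 for HSP17.4 in *med14-2*. For the other fits of this paragraph the shares of all genes are not set beside the counts. Their counts of members are thus not read as a result about the family.

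The following were chosen after seeing the data, for levels against Col-0. At 20°C, fits of the compared groups alone called 0 higher in *hmr-22*, and HSP17.7 was called higher in *med14-2*, 1 of 9, with a pseudocount of 0.1 and without *hmr-22*. At 27°C, 0 were higher in *pif4-2* without the filter, with a pseudocount of 0.1, and with the compared groups alone. An adjusted p under 0.05 alone gave 3 lower in *hmr-22* and 2 higher in *med14-2* at 20°C, and 4 higher in *pif4-2* and 1 higher in *hmr-22* at 27°C. The shares of all genes at this limit are not given. At an unadjusted p under 0.05 by limma, 45.6% of all genes were lower in *hmr-22* and 14.5% higher in *med14-2* at 20°C. At 27°C, 36.3% were higher in *hmr-22*, and no such share is given for *pif4-2*. These counts of members are thus not read as a result about the family.

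The replicate block called 2 members higher in *pif4-2* at 27°C, HSP17.6B and HSP23.6, against 3.55% of all genes, and lost HSP17.8. It called 1 higher in *hmr-22* at 27°C, HSP17.4, against 23.7%. It changed no other call of a member, those in *med14-2* included. Leaving out 1 library at a time gave, for warmth, 0 to 1 called in Col-0 and 0 to 1 in *med14-2*. For levels it gave 0 to 1 higher and 0 to 1 lower in *hmr-22* and 0 to 1 higher in *med14-2* at 20°C, and 0 to 1 higher in *pif4-2*, 0 to 1 higher and 1 to 2 lower in *hmr-22* at 27°C. For responses it gave 1 to 3 smaller in *hmr-22*, 0 to 1 smaller in *med14-2*, and 0 to 1 larger in *pif4-2*. Single changes with warmth ran from −0.16 to 0.35 for HSP17.6B and −0.0823 to 0.44 for HSP17.7 in *med14-2*, and from 0 to 0.23 for HSP17.6II and 0 to 0.35 for HSP18.2 in *hmr-22*. Differences of response ran from −0.12 to 0.92 for HSP17.6A and −0.10 to 0.72 for HSP17.6C in *hmr-22*, and in *med14-2* from −0.16 to 0.54 for HSP17.4, −0.36 to 0.20 for HSP17.6C, and −0.37 to 0.0742 for HSP23.6. Depth limits the low members: HSP21 had at most 3 fragments in a library.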
